A study of Homo sapiens with 6 samples.

Results

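The genes described here, apart from SPNS1, make, break down, export and sense sphingosine-1-phosphate (S1P). They were compared between control and SCAMP1-depleted NCI-N87 cells, an established human gastric cancer cell line. The set held 10 of the 58735 genes measured. It included the kinases SPHK1 and SPHK2, the lyase SGPL1, the phosphatases SGPP1 and SGPP2, the transporter SPNS2, and the receptors S1PR2, S1PR3 and S1PR5. It also included SPNS1, a family member of SPNS2 that is known as a lysosomal transporter of lysophospholipids. All 10 were found by their symbols among the 19951 protein-coding genes. The set was chosen by measured values of these same libraries, since the high level of SPNS2 and SGPL1 in SCAMP1-depleted cells was already known, so the values of the 10 genes are given as a description, without p-values. Where one of them is said to meet a threshold used for all genes, this restates the values that chose the set and supports nothing further.

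RNA sequencing compared 3 libraries of cells with a control lentivirus, labelled shNC, with 3 libraries of cells with a lentivirus carrying an shRNA against SCAMP1, labelled shScamp1. Both populations were otherwise the same line, selected with puromycin at 2 μg/ml and kept as stable populations, and total RNA was taken at about 80% confluence. In the study's methods the control is the empty vector pSIH-H1-puro (shCtrl) and the shRNA is shS1#1, so the control cells carried no shRNA and a single shRNA sequence stands for the knockdown. The 3 samples of a group were described as biological replicates, but no source used here says that they came from separate infections. The paper excepts its RNA-seq from the assays that it says were repeated independently. The spread between the samples may therefore not include the infection step.

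S1P is a lipid made inside the cell when a sphingosine kinase phosphorylates sphingosine, the backbone that ceramidases release from ceramide. It leaves the pool along 3 routes: S1P lyase cleaves it irreversibly, phosphatases return it to sphingosine, and transporters such as SPNS2 carry it out of the cell. Outside, S1P binds G protein-coupled receptors and is best known for guiding lymphocyte exit from lymphoid organs and for keeping the endothelial barrier tight. Epithelial cells, including those of the gut, express the lyase and several of these receptors.

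RefSeq start-site windows (GRCh38.p14, 250 bases before to 50 after each start) were available for 8 of the 10 genes, with none for SPNS2 and SGPP1. The windows of SGPL1 and S1PR5 are shown because their groups did not overlap and a start site lay near their annotated start, 13 and 34 bases away. The groups of SPHK1 did not overlap either, but its nearest start site lay 6620 bases away, so its window is not shown. Among the genes that had a window and were tested, SGPL1 and S1PR5 also had the largest positive and the largest negative log2 fold change. Where a gene had several start sites, the window nearest to its annotated start is shown. Capitals mark each match, on either strand, to GGGCGG, the GC box, or to CCAAT, the CCAAT box. The SGPL1 window lies at chr10:70815698-70815997 on the forward strand, and the S1PR5 window at chr19:10517916-10518215 on the reverse strand.
SGPL1: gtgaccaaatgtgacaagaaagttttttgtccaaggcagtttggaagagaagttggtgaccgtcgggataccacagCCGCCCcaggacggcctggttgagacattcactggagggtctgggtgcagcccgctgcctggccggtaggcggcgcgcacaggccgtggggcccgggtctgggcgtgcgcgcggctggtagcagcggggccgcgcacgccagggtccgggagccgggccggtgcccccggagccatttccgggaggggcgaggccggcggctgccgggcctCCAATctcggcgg
S1PR5: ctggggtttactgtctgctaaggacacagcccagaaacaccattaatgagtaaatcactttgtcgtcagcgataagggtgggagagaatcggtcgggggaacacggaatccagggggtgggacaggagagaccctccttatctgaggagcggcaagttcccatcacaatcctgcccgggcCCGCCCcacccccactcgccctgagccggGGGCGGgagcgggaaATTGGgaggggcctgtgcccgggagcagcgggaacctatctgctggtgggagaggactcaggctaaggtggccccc
The SGPL1 window held 1 GC box and 1 CCAAT box, and the S1PR5 window held 2 GC boxes and 1 CCAAT box. These letters are common, since 45.0% of the 35116 RefSeq windows of this length held GGGCGG and 34.6% held CCAAT. No window of these genes held TATAAA, the TATA box, which 11.5% of all windows held,. CACGTG, the E-box, was found only in the SPNS1 window, with 2 matches, against 7.26% of all windows with at least 1. GC content was 70.0% in the SGPL1 window and 62.0% in the S1PR5 window, against a median of 58.7% over all windows.

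Expression was deposited by the authors in FPKM, which divides the fragments of a gene by its length and by a factor of the library, so that levels of different genes can be compared per length. FPKM multiplied by gene length and by an effective size, 1 value per library recovered from the values themselves, gave whole numbers of reads for 100% of values, within a tolerance of 0.05 reads, and the libraries held 14311769 to 15988700 reads on genes. SCAMP1 itself was at 12.6, 12.1 and 11.5 FPKM in the shNC libraries and at 1.70, 1.37 and 1.99 FPKM in the shScamp1 libraries, a mean lower by 86.0%. Library shScamp1 replicate 2 stood apart from the rest: its mean chi-square per gene against the other shScamp1 libraries was 49.7 and 38.9, while every other pair within a group was between 2.06 and 3.33. Its mitochondrial share of reads was 9.21%, against 6.09% to 6.78% in the other libraries. All 7 epithelial markers were detected in all libraries, with sums of 5476 to 5755 FPKM in shNC and 9109 to 10046 FPKM in shScamp1. The keratins KRT8, KRT18 and KRT19 made up most of this difference. ERBB2 was at 1201 to 1268 FPKM in shNC and 1304 to 1515 FPKM in shScamp1, and CDH1 at 54.5 to 56.0 and 69.3 to 86.5 FPKM, without overlap, while EPCAM was at 150 to 156 FPKM in shNC and 141 to 154 FPKM in shScamp1, and CLDN7 at 53.4 to 57.4 and 37.3 to 60.4 FPKM. Summed markers of other cells stayed under 1 FPKM in every library: 0.201 to 0.316 FPKM in shNC and 0.566 to 0.719 FPKM in shScamp1 for 5 endothelial genes, 0.533 to 0.689 and 0.487 to 0.773 FPKM for 5 fibroblast genes, and 0.360 to 0.711 and 0.403 to 0.661 FPKM for 6 leukocyte genes. The genes listed at 0 in all libraries included COL1A2 and DCN of the fibroblast genes and MS4A1 of the leukocyte genes, and no endothelial gene. As in any bulk sample, more RNA per cell and more cells with a transcript cannot be told apart.

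The exporter SPNS2 rose more than any other S1P gene, the lyase SGPL1 rose, and the phosphatase SGPP1 fell. No kinase or receptor met the threshold used for all genes, although S1PR5 and SPHK1 were lower in shScamp1 without overlap between the groups. When single libraries were left out, SGPP1 met that threshold in 2 of 6 fits, and SPNS2 and SGPL1 in 6 of 6. Differences were read from limma on log2(FPKM + 0.1), run on the 15556 genes that averaged 0.5 FPKM or more, and a gene is called higher or lower here when its Benjamini-Hochberg adjusted p was under 0.05. Of the 10 genes, 8 passed the filter on low values: 2 met this threshold with shScamp1 higher, 1 with shScamp1 lower and 5 did not meet it, and SPNS1 and S1PR3 were too low to be tested. Of all genes tested, 8.82% were called higher and 5.17% lower. The median log2 fold change of the 8 genes was -0.16, against -0.02 over all genes tested, and 6 of the 8 lay below 0, against 52.4% of all genes tested. SPNS2 alone also passed an absolute log2 fold change of 1, as 3.16% of all genes tested did. Because the genes were selected on this contrast, these shares are given for scale only.

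**Figure D1:**
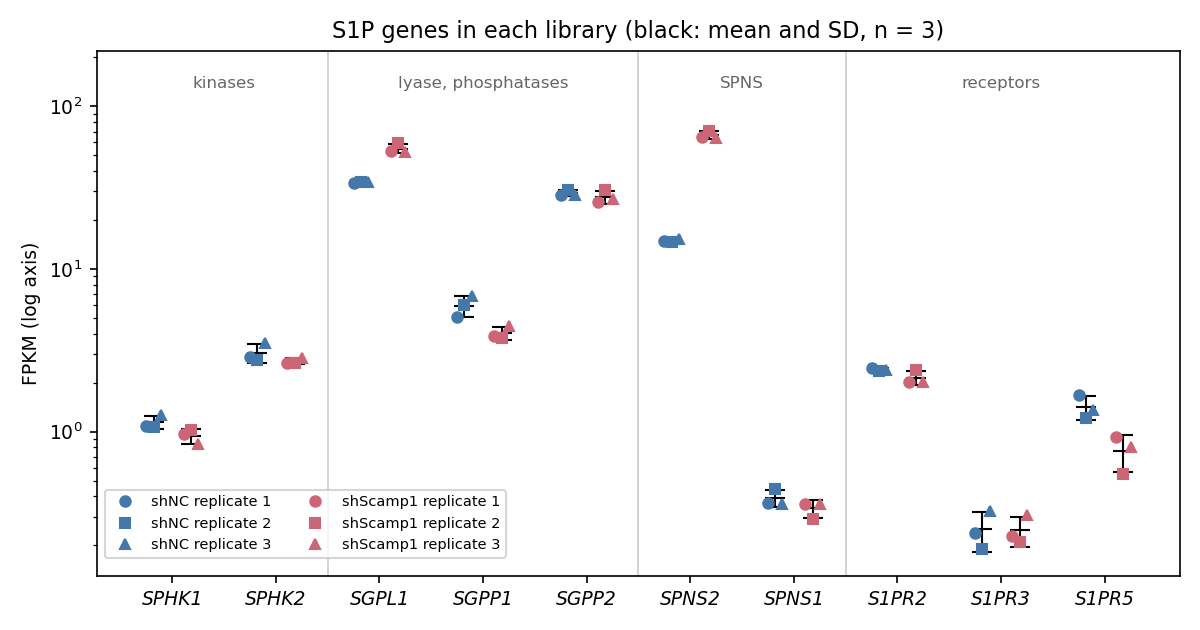
FPKM on a log axis for each of the 10 S1P genes, in role order, with 1 point per library (blue, shNC; red, shScamp1) and the mean and SD of each group in black (n = 3). SPNS2 lay at 14.6 to 15.4 FPKM in shNC and at 64.1 to 71.0 FPKM in shScamp1, and SPNS1 and S1PR3 lay under 0.5 FPKM in all libraries.

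SPNS2 is the membrane transporter that releases S1P from endothelial and other cells, and its gene lies on chromosome 17 from 4498838 to 4539035 on the forward strand (ENSG00000183018). Its level was 14.9, 14.6 and 15.4 FPKM in the shNC libraries. In the shScamp1 libraries it was 64.6, 71.0 and 64.1 FPKM. All 3 knockdown libraries were far above all 3 controls, with the highest value in shScamp1 replicate 2. The mean went from 14.9 ± 0.397 to 66.6 ± 3.85 FPKM (n = 3 each, SD), a ratio of 4.46 and a log2 fold change of 2.15 (standard error, SE, 0.07). By log2 fold change SPNS2 ranked 105 from the top among the genes tested, at percentile 99.3. The values rested on 968 to 3997 reads per library. Without shScamp1 replicate 2 the log2 fold change was 2.10. Of the 4111 exon bases of SPNS2, 139 are shared with MYBBP1A on the opposite strand, which was at 15.9 FPKM in shNC and 12.7 FPKM in shScamp1 on average. Endothelial cells are a known source of SPNS2, and the endothelial markers PECAM1 and KDR were at most at 0.0104 FPKM in any library. CDH5 was at 0, 0 and 0.0106 FPKM in shNC and at 0.0450, 0.0360 and 0.0450 FPKM in shScamp1. TEK was at 0.0624 to 0.131 FPKM in shNC and 0.106 to 0.185 FPKM in shScamp1, and VWF at 0.139 to 0.224 FPKM in shNC and 0.336 to 0.576 FPKM in shScamp1. The part of these low levels in the SPNS2 values was not tested.

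SPNS1, the family member known as a lysosomal transporter of lysophospholipids, was at the low end of the set (ENSG00000169682; chromosome 16, 28974221 to 28984548, forward strand). It was listed at 0.366, 0.443 and 0.358 FPKM in shNC and at 0.361, 0.289 and 0.360 FPKM in shScamp1. The groups overlapped, and the values came from only 15 to 28 reads per library. Of its 3792 exon bases, 62.7% are shared with other annotated genes, mostly with AC109460.3 on the same strand (2101 bases) and also with AC109460.1 on the opposite strand (561 bases), so reads of SPNS1 may have been assigned elsewhere or left out of the count. Its level is therefore uncertain.

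**Figure D2:**
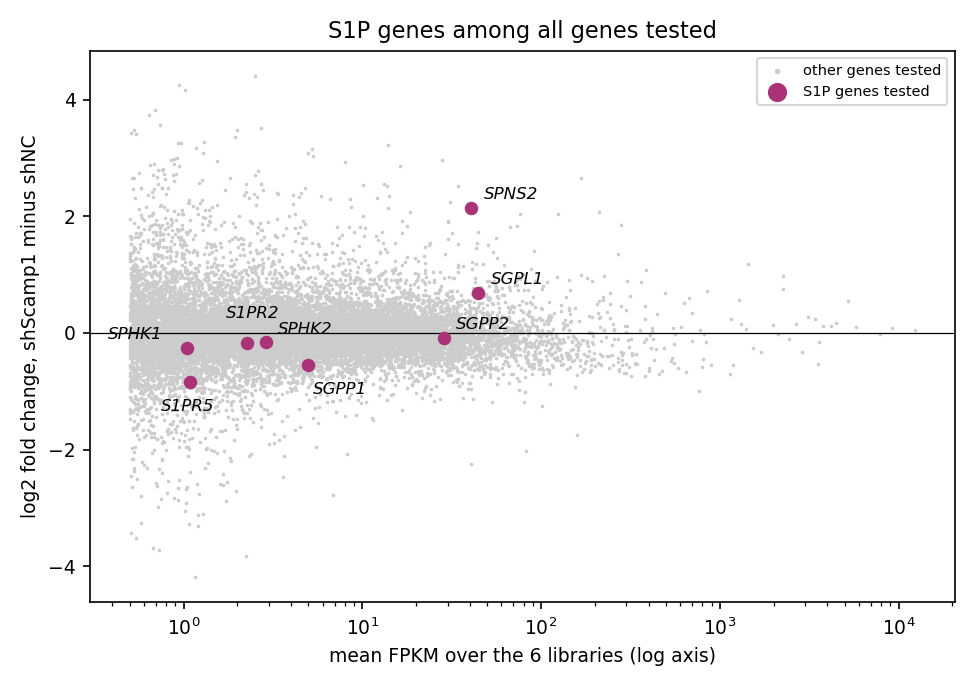
Log2 fold change (shScamp1 minus shNC) against mean FPKM over the 6 libraries (log axis) for all 15556 genes tested, with the 8 S1P genes that were tested in purple. SPNS2, at 2.15, sits near the upper edge for genes of its level, SGPL1 lies at 0.69, and the other 6 lie below 0.

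SGPL1, the lyase of the endoplasmic reticulum that ends S1P by cleaving it into a fatty aldehyde and phosphoethanolamine, had the highest level of the set in control cells (ENSG00000166224; chromosome 10, 70815961 to 70881173, forward strand). It was at 33.6, 34.1 and 34.3 FPKM in the shNC libraries and at 53.4, 59.2 and 52.5 FPKM in the shScamp1 libraries. The shNC values were within 1 FPKM of each other and all shScamp1 values were above them, again with the highest in replicate 2. The mean rose from 34.0 ± 0.374 to 55.0 ± 3.63 FPKM (n = 3 each, SD), a ratio of 1.62 and a log2 fold change of 0.69 (SE 0.07). This was percentile 91.9 of the genes tested, with 3971 to 6064 reads per library. Without shScamp1 replicate 2 the log2 fold change was 0.64.

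SGPP1 and SGPP2 encode the phosphatases that return S1P to sphingosine in the endoplasmic reticulum, and both had a negative log2 fold change. The difference between these genes was not tested. SGPP1 (ENSG00000126821; chromosome 14, 63684214 to 63728039, reverse strand) was at 5.07, 6.0 and 6.82 FPKM in shNC. It was at 3.87, 3.75 and 4.48 FPKM in shScamp1. The groups did not overlap, although the highest shScamp1 value was close to the lowest shNC value. The mean fell from 5.96 ± 0.879 to 4.03 ± 0.391 FPKM (n = 3 each, SD), a log2 fold change of -0.55 (SE 0.13; 170 to 349 reads per library). SGPP1 no longer met the threshold used for all genes without shNC replicate 2 (log2 fold change -0.54), shNC replicate 3 (-0.45), shScamp1 replicate 1 (-0.52) or shScamp1 replicate 3 (-0.62).

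SGPP2 (ENSG00000163082; chromosome 2, 222424517 to 222560948, forward strand), the more abundant phosphatase transcript, was at 28.4, 30.8 and 28.7 FPKM in shNC and at 25.9, 30.6 and 26.8 FPKM in shScamp1. The groups overlapped. The means were 29.3 ± 1.30 and 27.8 ± 2.47 FPKM (n = 3 each, SD), with a log2 fold change of -0.08 (SE 0.08). It was -0.15 without shScamp1 replicate 2 and -0.03 without shScamp1 replicate 1. SGPP2 was 5.61, 5.13 and 4.2 times the FPKM of SGPP1 in shNC and 6.71, 8.15 and 5.98 times in shScamp1.

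The sphingosine kinases, which make S1P, were low compared with the enzymes that remove it. SPHK1 (ENSG00000176170; chromosome 17, 76376584 to 76387860, forward strand), the mainly cytosolic kinase, was at 1.09, 1.07 and 1.26 FPKM in shNC and at 0.961, 1.03 and 0.836 FPKM in shScamp1. The 3 shScamp1 values lay below the 3 shNC values, by a narrow margin and on 54 to 86 reads per library. The means were 1.14 ± 0.105 and 0.941 ± 0.0965 FPKM (n = 3 each, SD). The log2 fold change of -0.25 (SE 0.16) did not meet the threshold used for all genes. SPHK1 shares 59 of its 4416 exon bases with PRPSAP1 on the opposite strand.

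SPHK2 (ENSG00000063176; chromosome 19, 48619291 to 48630717, forward strand), the isoform also found in the nucleus and mitochondria, was at 2.88, 2.75 and 3.52 FPKM in shNC and at 2.63, 2.65 and 2.85 FPKM in shScamp1. The groups overlapped, and shNC replicate 3 was the highest library. The log2 fold change was -0.16 (SE 0.11; 218 to 327 reads per library), and -0.05 without shNC replicate 3. Of the 6009 exon bases of SPHK2, 22.3% are shared with genes on the opposite strand, namely AC022154.1, DBP and RPL18, the last a ribosomal protein gene at 165 FPKM in shNC and 125 FPKM in shScamp1 on average. No source used here says whether the counting used strand, so reads of SPHK2 and RPL18 over the shared bases cannot be told apart.

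The receptors sat at the low end of the set. S1PR2 (ENSG00000267534; chromosome 19, 10221433 to 10231331, reverse strand), known for holding back cell migration, was at 2.46, 2.37 and 2.38 FPKM in shNC and at 2.03, 2.39 and 2.01 FPKM in shScamp1. Replicates 1 and 3 of shScamp1 were below the controls, and replicate 2 was within their range. The means were 2.40 ± 0.0474 and 2.14 ± 0.212 FPKM (n = 3 each, SD), with a log2 fold change of -0.16 (SE 0.10; 107 to 144 reads per library). Without shScamp1 replicate 2 the log2 fold change was -0.24, which did not meet the threshold either. S1PR2 shares 83 of its 3643 exon bases with DNMT1 on the same strand.

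S1PR5 (ENSG00000180739; chromosome 19, 10512742 to 10517931, reverse strand), the receptor best known in natural killer cells and oligodendrocytes, had the most negative log2 fold change of the set. It was at 1.69, 1.22 and 1.36 FPKM in shNC and at 0.927, 0.547 and 0.804 FPKM in shScamp1. The groups did not overlap, and the lowest value was again in shScamp1 replicate 2. The means were 1.42 ± 0.239 and 0.759 ± 0.194 FPKM (n = 3 each, SD), a ratio of 0.534 and a log2 fold change of -0.84 (SE 0.23). The gene had 21 to 75 reads per library, and the difference did not meet the threshold used for all genes. It met that threshold with voom on the recovered reads (-0.90) and when only protein-coding genes were tested (-0.84).

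S1PR3 (ENSG00000213694; chromosome 9, 88990863 to 89005010, forward strand), a receptor of vascular and smooth muscle cells, was listed at 0.237, 0.190 and 0.324 FPKM in shNC and at 0.227, 0.210 and 0.307 FPKM in shScamp1. The group ranges overlapped almost fully, with 39 to 68 reads per library. Among the receptors outside the set, S1PR1 had 3 to 10 reads and S1PR4 had 2 to 6 reads per library. S1PR1 was at 0.0372 to 0.0689 FPKM in shNC and at 0.0787 to 0.140 FPKM in shScamp1, without overlap. The groups of S1PR4 overlapped. Both genes were too low to be tested at this depth.

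In all, 5 of the 8 tested genes had groups that did not overlap, SPNS2 and SGPL1 with shScamp1 higher and SGPP1, SPHK1 and S1PR5 with shScamp1 lower. Of all genes tested, 20.4% did not overlap with shScamp1 higher and 21.0% with shScamp1 lower. Library shScamp1 replicate 2 was the highest or lowest of its group in 9 of the 10 genes, as it was in 85.9% of all genes tested.

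The order of the levels, per length, differed between the groups at the top. In shNC it ran from SGPL1 (34.0 FPKM) through SGPP2 (29.3), SPNS2 (14.9), SGPP1 (5.96), SPHK2 (3.05), S1PR2 (2.40), S1PR5 (1.42), SPHK1 (1.14) and SPNS1 (0.389) to S1PR3 (0.250). The ranges of S1PR5 and SPHK1 overlapped, and those of all other neighbours did not. In shScamp1 SPNS2 (66.6 FPKM) came first, ahead of SGPL1 (55.0) and SGPP2 (27.8), with no overlap between them. The rest followed as SGPP1 (4.03), SPHK2 (2.71), S1PR2 (2.14), SPHK1 (0.941), S1PR5 (0.759), SPNS1 (0.337) and S1PR3 (0.248). There, the ranges of SPHK1 and S1PR5 overlapped, as did those of SPNS1 and S1PR3.

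**Figure D3:**
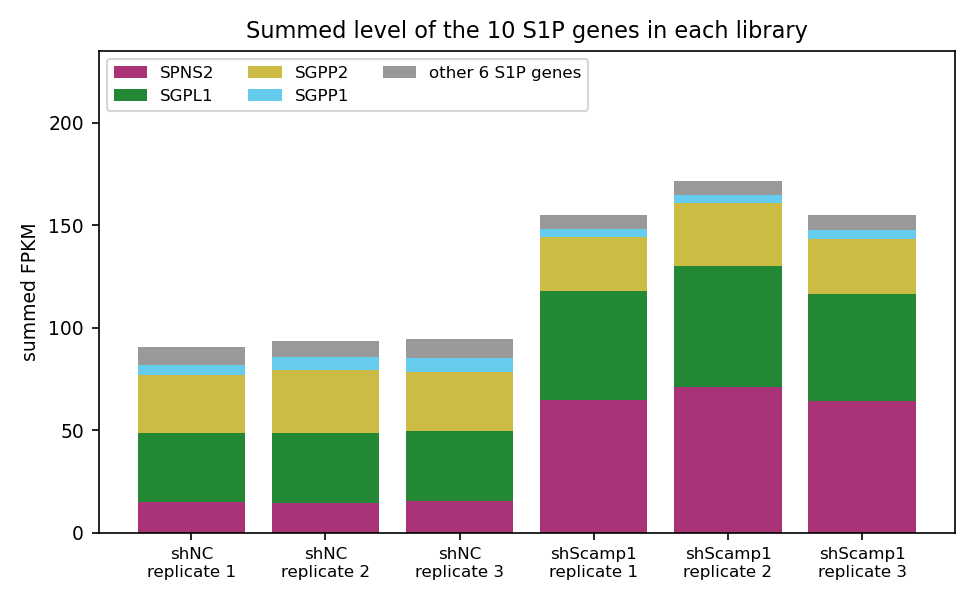
Summed FPKM of the 10 S1P genes in each library, stacked by gene. The sum was 90.6 to 94.4 in shNC and 155 to 172 in shScamp1, and the SPNS2 segment made up 15.6% to 16.4% of it in shNC and 41.4% to 41.7% in shScamp1.

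Summed over the 10 genes, the level was 92.8 ± 1.95 FPKM in shNC and 161 ± 9.60 FPKM in shScamp1 (n = 3 each, SD). SPNS2 accounted for 16.1% ± 0.433 of this sum in shNC and 41.5% ± 0.187 in shScamp1. The share of SGPL1 was 36.6% ± 0.374 and 34.3% ± 0.368, lower in all 3 shScamp1 libraries, and that of SGPP2 was 31.5% ± 1.29 and 17.3% ± 0.545. SPNS2 thus took a larger part of the sum in all 3 shScamp1 libraries, and SGPP2 a smaller part although its own FPKM overlapped between the groups.

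Ratios within a library do not depend on its scaling, but they follow from the levels above and are given as a description only. SPNS2 was at 0.442, 0.427 and 0.447 times the FPKM of SGPL1 in shNC and at 1.21, 1.2 and 1.22 times in shScamp1. The 3 libraries of a group were close to each other on this ratio, shScamp1 replicate 2 included. The lyase stood at 0.966 ± 0.0382 times the summed phosphatases in shNC and at 1.73 ± 0.0585 times in shScamp1. SPNS2 stood at 3.59 ± 0.332 times the summed kinases in shNC and at 18.2 ± 0.998 times in shScamp1 (n = 3 each, SD). The summed receptors were at 4.08 ± 0.300 and 3.15 ± 0.0331 FPKM, and the summed kinases at 4.19 ± 0.520 and 3.65 ± 0.0525 FPKM.

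**Figure D4:**
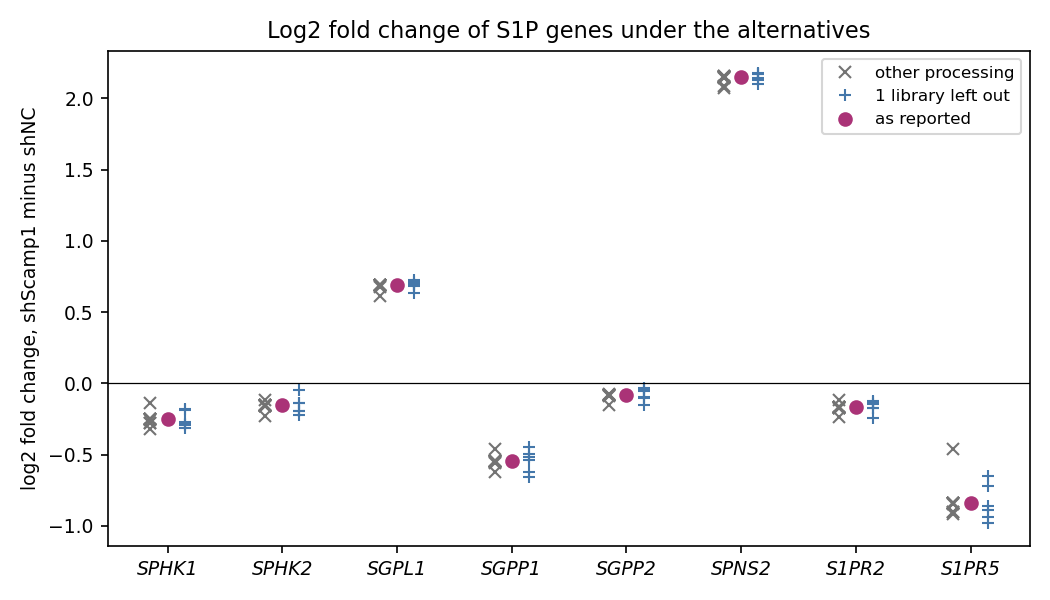
Log2 fold change (shScamp1 minus shNC) of the 8 S1P genes tested as reported (purple), under other processing (grey crosses) and with 1 library left out (blue). SPNS2 stayed between 2.07 and 2.18 and SGPL1 between 0.62 and 0.72, and S1PR5 was the widest, from -0.98 to -0.46.

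Whether other genes of sphingolipid metabolism and related lipid signalling differed was addressed with 8 lists of gene families. The lists held 89 genes outside the set. Of the 89, 71 were tested: 7 were called higher, 3 lower and 61 were not called, and the median log2 fold change was 0.02. Of the 71, 13 were genes through which S1P receptors signal and 3 were of the lysophosphatidic acid family. Neither list belongs to sphingolipid metabolism, and neither held a call. The shares over all genes were 8.82% higher and 5.17% lower. Like the set, the lists were chosen with earlier results of these data known. Their counts and p-values are therefore given as a description. Leaving out shScamp1 replicate 2 raised the counts to 14 higher and 10 lower. In that fit, 2296 of all 15458 genes tested were called higher and 2078 lower. The pathway counts were 4 and 0 without shNC replicate 1 and 6 and 2 without shScamp1 replicate 1. They were 5 and 1 without shNC replicate 2, shNC replicate 3 or shScamp1 replicate 3. Over all genes, these other fits gave 651 to 1143 higher and 166 to 670 lower.

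Among 5 ceramidases, the enzymes that release sphingosine, 3 were tested and 2 were called higher. ACER2, the alkaline ceramidase of the Golgi, was at 1.61, 1.42 and 1.33 FPKM in shNC and at 4.93, 8.19 and 5.74 FPKM in shScamp1. All shScamp1 values were above all controls, and replicate 2 was the highest. The log2 fold change of ACER2 was 2.01 (SE 0.19, limma adjusted p = 0.0019), and 1.81 without that library. ASAH1, the acid ceramidase of the lysosome, was at 4.67, 4.98 and 4.63 FPKM in shNC and at 8.77, 6.77 and 8.66 FPKM in shScamp1 (log2 fold change 0.74, SE 0.12, limma adjusted p = 0.0107). Here replicate 2 was the lowest of the 3. The ASAH1 call was lost without shNC replicate 1 (0.73) or shNC replicate 3 (0.72). ACER3 was at 4.99 ± 0.115 and 4.92 ± 0.322 FPKM (n = 3 each, SD) and was not called.

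Among 9 further genes of S1P handling, 4 were tested and 1 was called. ALDH3A2, the dehydrogenase that oxidises the fatty aldehyde released by the lyase, was at 11.5, 11.2 and 11.5 FPKM in shNC and at 16.5, 17.2 and 16.2 FPKM in shScamp1. The groups were well apart, with a log2 fold change of 0.54 (SE 0.06, limma adjusted p = 0.00295). ABCC1, an efflux pump also known to carry S1P, was at 20.9 ± 0.462 and 20.4 ± 1.85 FPKM (n = 3 each, SD) and was not called.

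On the synthesis side, 14 of 17 genes of de novo ceramide synthesis were tested and 1 was called. DEGS1, the desaturase of the last step to ceramide, fell from 6.54, 6.04 and 6.02 FPKM in shNC to 4.30, 3.46 and 3.86 FPKM in shScamp1 (log2 fold change -0.67, SE 0.10, limma adjusted p = 0.00876). This call was lost without shNC replicate 1 (-0.63). Of 11 genes of ceramide transfer, ceramide kinase and sphingomyelin turnover, all 11 were tested, with 1 higher and 1 lower. SGMS1, a sphingomyelin synthase, was at 3.88 ± 0.266 FPKM in shNC and 3.02 ± 0.0962 FPKM in shScamp1 (n = 3 each, SD; log2 fold change -0.35, limma adjusted p = 0.0417), a call lost on leaving out any library but shScamp1 replicate 2 (-0.40 to -0.31). SMPD1, the acid sphingomyelinase, was the gene called higher, at 0.571 ± 0.103 and 1.40 ± 0.0986 FPKM (n = 3 each, SD; log2 fold change 1.17, limma adjusted p = 0.0122). Its mean lay under the 1 FPKM set for naming, so it was named after its values were seen.

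Of 20 genes of glycosphingolipid synthesis and breakdown, 18 were tested, with 3 higher and 1 lower. The 3 higher genes belong to breakdown in the lysosome. GM2A, the activator protein for ganglioside degradation, was at 8.16 ± 0.250 and 12.8 ± 0.956 FPKM (log2 fold change 0.65, limma adjusted p = 0.00404). PSAP, the precursor of the saposins, was at 234 ± 2.47 and 324 ± 3.73 FPKM (0.47, limma adjusted p = 0.00712), and NEU1, a sialidase, at 2.95 ± 0.0399 and 4.28 ± 0.575 FPKM (0.51, limma adjusted p = 0.0322; n = 3 each, SD). A4GALT, which builds globo-series glycolipids, was the lower gene, at 67.8 ± 2.53 and 52.4 ± 2.73 FPKM (n = 3 each, SD; log2 fold change -0.37, limma adjusted p = 0.0190). On leaving out single libraries, GM2A was called in 6 of 6 fits. PSAP was lost without shNC replicate 1 (0.46) or shNC replicate 2 (0.48), and NEU1 without any library but shScamp1 replicate 2 (0.45 to 0.63 over the 6 fits). A4GALT was lost without any of the shNC libraries or shScamp1 replicate 3 (-0.40 to -0.33 over the 6 fits).

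The remaining 3 lists held no call by limma at an adjusted p under 0.05. Of 6 genes of the lipid phosphate phosphatase family, some of which act on S1P outside the cell, 5 were tested, with 1 at an unadjusted p under 0.05 and 0 called by voom. Of 14 genes through which S1P receptors signal, 13 were tested, with 2 at an unadjusted p under 0.05 and 1 called by voom. Their log2 fold changes ran from -0.26 in GNAI2 to 0.35 in ARHGEF12. Of 7 genes of the lysophosphatidic acid family, the related lipid ligand, 3 were tested, with 2 at an unadjusted p under 0.05 and 0 called by voom.

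**Figure D5:**
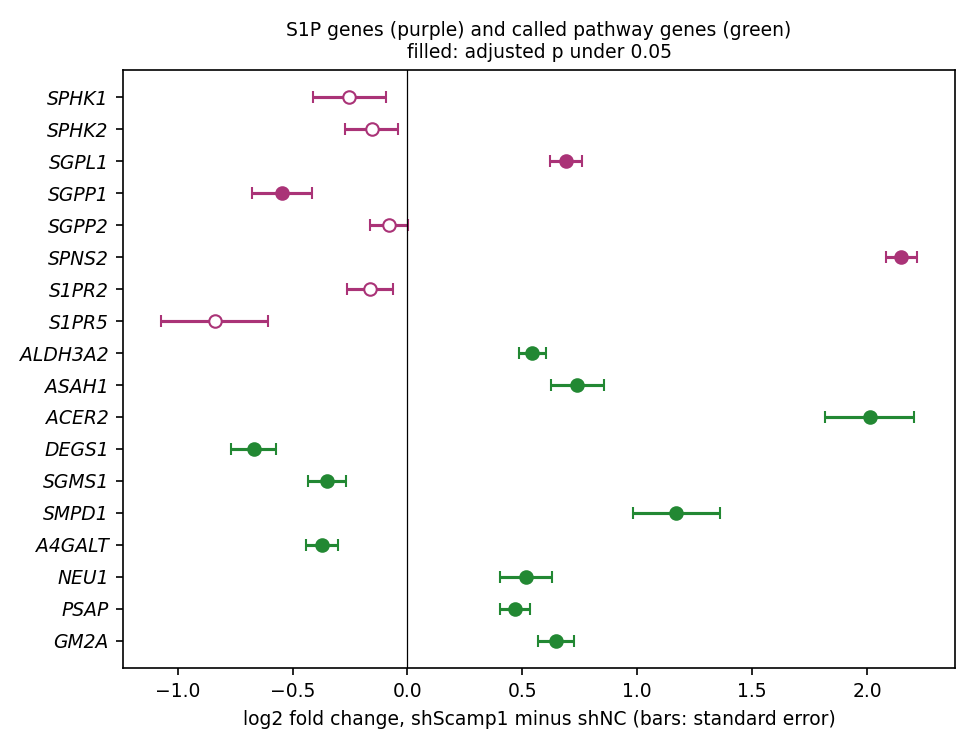
Log2 fold change (shScamp1 minus shNC) with its standard error for the 8 S1P genes tested (purple) and the 10 called genes of the pathway lists (green), with filled symbols at an adjusted p under 0.05. SPNS2 (2.15) and ACER2 (2.01) lie farthest to the right, and S1PR5 (-0.84), unfilled, farthest to the left.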

How the data were processed

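RNA of 3 shNC and 3 shScamp1 samples of NCI-N87 cells was sequenced. The authors deposited FPKM per gene and library, and the submitters' processing notes name HISAT2 2.0.5, featureCounts 1.5.0-p3, DESeq2 1.20.0 and build hg38. Strand setting and options were not given in the sources used here. The coordinates of all 10 genes equalled GENCODE 29 on GRCh38. Recovered reads showed that the deposited FPKM already contained median-of-ratios size factors (0.914 to 1.11), so no scaling was added. In R 4.3.3, limma 3.58.1 (lmFit, eBayes with trend, two-sided) was run on log2(FPKM + 0.1) of genes averaging 0.5 FPKM or more, with Benjamini-Hochberg adjustment over all of them; this scale understates the change of low genes. Tables and figures were made in Python 3.11.15 with pandas 2.3.3, numpy 2.4.6 and matplotlib 3.10.9.

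The members and lists were chosen with earlier results of these data known. Named by a fixed rule are all 10 genes, SCAMP1, genes that overlap a member, and up to 4 called genes per list averaging 1 FPKM or more. Other list genes and the neighbours of SPNS2 were named after their values were seen. Some marker values are not reported here. Alternatives covered pseudocount, filter, scaling, trend, voom, biotype, the replicate block, unadjusted p and each library left out.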

Additional observations from a re-analysis of the deposited data

How the results depend on the processing

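Alternatives were computed for SCAMP1, the 8 S1P genes tested and the pathway genes named by rule, and none of their fold changes changed sign. SGPP1 met the threshold in 9 of 16 alternatives and S1PR5 in 2 of 16, given as a description. SGMS1 and NEU1 were called in 8 of 16, and A4GALT in 11. Over all genes, 1372 were called higher and 805 lower, against 1136 and 1266 when scaled by total reads, which moved the median log2 fold change of all genes from -0.02 to -0.10, and 2498 and 2284 at an unadjusted p under 0.05. Without a filter 514 were called lower, and with a pseudocount of 1, 248 genes rather than 492 also passed a log2 fold change of 1. The count of S1P genes called lower, 1 as reported, was 0 without a filter, without the trend and with the replicate block, and 2 with voom, with protein-coding genes only and at the unadjusted p. Pathway genes called higher and lower, 7 and 3 as reported, were 11 and 5 with protein-coding genes only and 15 and 9 at the unadjusted p. The lower count was 7 when scaled by total reads and 5 with voom. Over all genes, 1570 of 11529 were called higher and 1056 lower with protein-coding genes only, and 1140 were called lower with voom. The replicate numbers did not pair the libraries (correlation of deviations -0.035, 0.032 and 0.067). With the replicate number as a block, 704 genes were called higher and 254 lower, and pathway genes 4 and 1. Leaving out 1 library gave 651 to 2296 genes higher, 166 to 2078 lower, 0 to 1 S1P genes lower, 4 to 14 pathway genes higher and 0 to 10 lower, with the highest counts without shScamp1 replicate 2. All 3 shNC libraries and shScamp1 replicate 3, left out singly, lowered both counts over all genes by more than 1.5 times (651 to 715 higher, 166 to 314 lower). The cause was not tested. Depth limits S1PR5, SPHK1, SPNS1 and S1PR3, with fewer than 100 reads in each library.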

Other observations

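The genes around SPNS2 were examined after its values were seen. Within 100 kb of SPNS2, 6 other genes were tested, of which 2 were called higher by limma, against 8.82% of all genes tested. AC118754.1, whose span covers the start of SPNS2 on the opposite strand without sharing exon bases with it, was at 1.02, 0.324 and 0.175 FPKM in shNC and at 2.04, 1.58 and 2.77 FPKM in shScamp1, from 1 to 15 reads per library (log2 fold change 2.10, SE 0.53, limma adjusted p = 0.0483). The strand setting of the counting is not stated, so its reads and those of SPNS2 transcripts over the shared span cannot be told apart. GGT6, a member of the gamma-glutamyltransferase family, was at 8.36, 7.46 and 8.52 FPKM in shNC and at 11, 12.2 and 11.3 FPKM in shScamp1 (log2 fold change 0.50, limma adjusted p = 0.0118). SPNS3, the third SPNS gene, which lies next to SPNS2, was at 0.987, 0.805 and 1.13 FPKM in shNC and at 1.86, 1.25 and 1.83 FPKM in shScamp1. Its groups did not overlap, and the difference was not called (log2 fold change 0.69, SE 0.21, limma adjusted p = 0.0779). MYBBP1A, on the opposite strand, had a log2 fold change of -0.33 (limma adjusted p = 0.10) and was not called.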
